A study of Homo sapiens with 34 samples.

Results

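The 31 genes described here encode the transporters and enzymes that carry glucose to pyruvate and lactate, the PFKFB regulators of phosphofructokinase, the kinase PDK1 at the entry of pyruvate into mitochondria, and enzymes of the pentose phosphate pathway. They were chosen by gene symbol from that pathway. They are 31 of the 17587 genes listed in at least 1 of 6 tables, and 30 of them are among the 13307 genes listed in all 6. The exception, *PFKFB2*, was missing from the BV-173 knockdown table.

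RNA was sequenced from 3 human lines of B-cell acute lymphoblastic leukemia: BV-173 with the fusion BCR-ABL, NALM-6, labelled ETV6-PDGFRB, and RS4;11 with MLL-AF4. Each line was transduced with a lentiviral shRNA against *CCND3*, which encodes cyclin D3, or with a scrambled shRNA, and cells carrying the vector were isolated 4 days later. Other cultures of each line received 1 µM palbociclib, an inhibitor of the cyclin D partners CDK4 and CDK6, or its DMSO control, and were collected after 3 days. The comparisons set loss of the cyclin beside inhibition of its kinases. The 34 samples formed 12 groups, with 3 samples each of scrambled, DMSO and palbociclib cells in NALM-6, of scrambled, shCCND3, DMSO and palbociclib cells in RS4;11, and of scrambled, shCCND3 and palbociclib cells in BV-173. The remaining groups, NALM-6 shCCND3 and BV-173 DMSO, had 2 samples each. A single shRNA sequence was used for the sequenced knockdown, so effects of that sequence on other targets cannot be told apart from loss of *CCND3*. Each table holds 1 expression level per group, and the summed level per group lay between 17810468 and 20756235. The depth of single samples and the spread between replicates are unknown.

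Glycolysis splits glucose into pyruvate with a net gain of ATP, and lactate dehydrogenase regenerates the NAD+ it needs. The pentose phosphate pathway branches off at glucose 6-phosphate: its oxidative arm yields NADPH, and its non-oxidative arm exchanges ribose 5-phosphate with glycolytic intermediates. Cyclin D3 with CDK6 has been reported to phosphorylate the enzymes encoded by *PFKP* and *PKM* in T-cell leukemia, which concerns the proteins and not the transcripts measured here.

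The level of *CCND3* (NCBI Gene 896, chr6:41934933-42050035, hg38) went from 19499 in scrambled to 4727 in shCCND3 cells of NALM-6, from 16178 to 3353 in RS4;11 and from 6619 to 2060 in BV-173. These are 24.2%, 20.7% and 31.1% of control. In limma, with the 3 lines as the replicates, *CCND3* fell by a mean log2 of -2.00 (SE 0.127, adjusted p 0.00279), lower in 3 of 3 lines. The knockdown call was lost in limma without NALM-6 (mean -1.98, adjusted p 0.314) and without RS4;11 (-1.86, adjusted p 0.301), where each treatment has 2 ratios. With palbociclib its level was 78.0%, 81.8% and 76.0% of DMSO, a mean log2 ratio of -0.35 that missed the threshold (adjusted p 0.0758 in limma) and passed it with cell line as a further term (adjusted p 0.0365).

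The labelled cell type was checked on 10 B-lineage markers, which were listed in each of the 6 tables with summed levels of 55502 to 130483 per group. *PAX5*, a transcription factor of B-cell commitment, had levels of 7880 to 17673. *MME*, which encodes CD10, was 3723 or more in NALM-6 and BV-173 and between 2.53 and 6.70 in RS4;11. The 4 T-cell markers summed to between 0.601 and 8.34 and the 2 erythroid markers to less than 1 in each group. The 4 myeloid markers summed to between 88.4 and 560, led by *LYZ* in NALM-6 and by *CSF1R* in RS4;11 and BV-173. In BV-173 that myeloid sum was 199.9 with DMSO and 557 with palbociclib through *CSF1R* (144.7 and 513), while *MPO* was 28.8 and 14.4 and *LYZ* 25.9 and 28.8. With palbociclib 2 of the 10 B-lineage markers were above control and 6 lower by at least 1.5-fold in BV-173, against 52.9% and 11.9% of all genes, with a median log2 ratio of -0.591. In NALM-6 and RS4;11 that median was 0.337 and 0.516, and with knockdown it lay between -0.045 and 0.150 in the 3 lines. The part of these shifts in the glycolytic ratios was not tested. The fibroblast gene *COL1A1* reached 216 in RS4;11 shCCND3 cells. No listed gene, marker or not, had a level of 0 in any group, and the lowest level per group was 0.14 to 0.19.

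Proliferation markers moved alongside the comparisons. The 12 of them, among them the DNA clamp gene *PCNA* and the antigen gene *MKI67*, were below control in 12 of 12 cases in each of the 6 comparisons. Their median log2 ratio with knockdown was -1.73 in RS4;11, -1.30 in NALM-6 and -0.50 in BV-173, and with palbociclib, in that order, -4.52, -2.94 and -1.57. In limma 12 of 12 fell with palbociclib and 0 of 12 passed with knockdown, where 7 of them had an unadjusted p under 0.05. BV-173 thus had the smallest shift in these markers with each treatment, and the part of that difference in the glycolytic ratios was not tested. In such bulk RNA, fewer cells of one state and less RNA per cell cannot be told apart.

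Among the 31 genes, levels per kb of transcript were highest for *GAPDH*, which encodes the enzyme that oxidises glyceraldehyde 3-phosphate. The median level per kb over the 12 groups was 67953 for *GAPDH*, 17617 for the enolase gene *ENO1*, 14733 for *LDHB*, 10524 for the aldolase gene *ALDOA* and 8768 for the pyruvate kinase gene *PKM*. It was 7.10 for the lactate transporter gene *SLC16A3*. The deposited length of *PFKFB2* differed between tables, so its levels per kb are not compared. The ranges over groups of *ENO1*, *LDHB* and *ALDOA* overlapped, while the lowest *GAPDH* level per kb, 43519, exceeded the highest of *ENO1*, 28111. *GAPDH* made up 36.1% to 43.1% of the summed level per kb of the 31 genes. Reads shared with pseudogenes or paralogs of *GAPDH*, *PGK1*, *LDHA*, *TPI1*, *ENO1*, *PKM*, *ALDOA*, *PGAM1* and *RPE* could not be assessed from these tables, nor could the splice isoforms of *PKM*.

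The knockdown ratios of the pathway differed in sign between lines. In NALM-6, 6 of 31 genes were above the scrambled control, against 51.2% of all genes listed, and their median log2 ratio was -0.32. In RS4;11, 13 of 31 were above control, against 50.9% of all genes, with a median of -0.09. In BV-173, 27 of 30 were above control, against 48.9% of all genes, with a median of 0.22, but with levels per kb scaled to their sum, an alternative chosen after seeing the data, the count was 14, which is 46.7% against 19% of all genes, and the median was -0.03 against -0.257 for all genes. Across the 30 genes in all 6 tables, 16 (53.3%) were below control in NALM-6 and RS4;11 and above it in BV-173. That pattern was held by 11.7% of all 13307 genes. With either treatment the pattern combines the counts per line and is not separate from them. With levels per kb scaled to their sum it was held by 6 (20% against 4.01%), and with the trend on gene length taken out by 11 (36.7% against 7.97%), both alternatives chosen after seeing the data. As deposited, the 16 ran from transport to lactate: *SLC2A1*, *HK2*, *PFKP*, *PFKFB4*, *ALDOA*, *TPI1*, *GAPDH*, *PGK1*, *PGAM1*, *ENO1*, *ENO2*, *PKM*, *LDHA*, *PDK1*, *SLC16A1* and *PGD*. With 1 ratio per line, the difference between lines was not tested.

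Palbociclib gave a like split in counts, in part through other genes. Against DMSO, 8 of 31 genes were above control in NALM-6 (all genes 53.5%) with a median log2 ratio of -0.28. In RS4;11 the count was 13 of 31 (all genes 51.7%) and the median -0.19. In BV-173 it was 27 of 31 (all genes 52.9%) and the median 0.21, which became 14 of 31 (45.2% against 31.4% of all genes) and -0.03 (all genes -0.201) with levels per kb scaled to their sum. Below control in NALM-6 and RS4;11 and above it in BV-173 were 13 of 30 genes (43.3%), against 8.36% of all genes. That count was 5 (16.7% against 3.64%) with levels per kb scaled to their sum and 8 (26.7% against 6.46%) with the length trend taken out. As deposited, the 13 were *HK1*, *GPI*, *PFKM*, *PFKP*, *ALDOA*, *TPI1*, *GAPDH*, *ENO1*, *PKM*, *LDHA*, *PGD*, *RPIA* and *TALDO1*. Of these, *HK1*, with BV-173 levels below 1, *GPI*, *PFKM*, *RPIA* and *TALDO1* were not among the 16 knockdown genes. BV-173 had the highest of the 3 ratios for 25 of 30 genes with knockdown, against 39.3% of all genes, and likewise for 25 of 30 with palbociclib, against 36.6%.

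**Figure D1:**
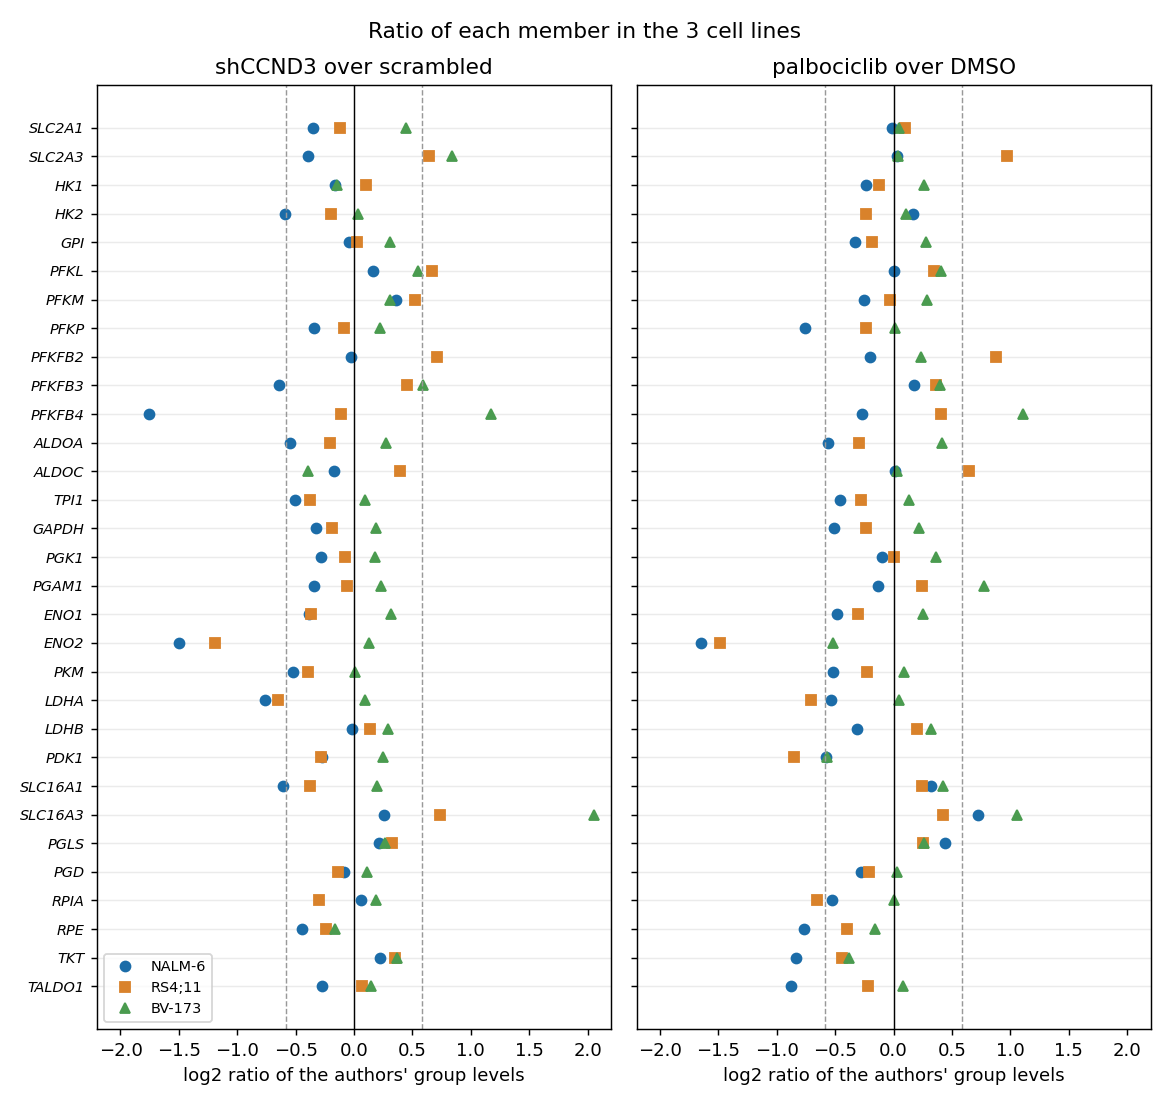
Log2 ratio to control of each gene (vertical axis, in pathway order) with knockdown (left) and palbociclib (right), 1 point per cell line. Most points of NALM-6 lie below 0 and most of BV-173 above it as deposited, 27 of 30 with knockdown, although that BV-173 count is 14 when levels per kb are scaled to their sum, 46.7% against 19% of all genes.

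Ratios moved with gene length, most in BV-173. Among genes with both levels of at least 1000, the median knockdown log2 ratio in BV-173 was 0.406 for genes under 1 kb, 0.198 for 1 to 2 kb, 0.099 for 2 to 3 kb, -0.031 for 3 to 5 kb and -0.165 above 5 kb. With palbociclib these medians were 0.483, 0.135, 0.019, -0.039 and -0.160. In RS4;11 they went from 0.185 under 1 kb to -0.024 above 5 kb with knockdown and from 0.25 to -0.13 with palbociclib. The glycolytic genes of 1 to 2 kb, such as *GAPDH*, *TPI1* and *ALDOA*, had BV-173 medians of 0.228 with knockdown and 0.259 with palbociclib. At 2 to 3 kb these were 0.182 and 0.043, and at 3 to 5 kb 0.278 and 0.163. In each of these 3 classes the glycolytic median was above that of all abundant genes. The classes held 6 to 9 glycolytic genes, and the gap was as small as 0.043 against 0.019. In NALM-6 the class of 1 to 2 kb had medians over all abundant genes of -0.04 and -0.19, against -0.33 and -0.47 for the glycolytic genes in it. With the trend on length taken out, 20 of 30 genes in BV-173 were above control with knockdown (all genes 42.2%) and 20 of 31 with palbociclib (all genes 51.6%). These are 66.7% and 64.5% of the genes. The part of gene length in the BV-173 values was not tested further.

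**Figure D2:**
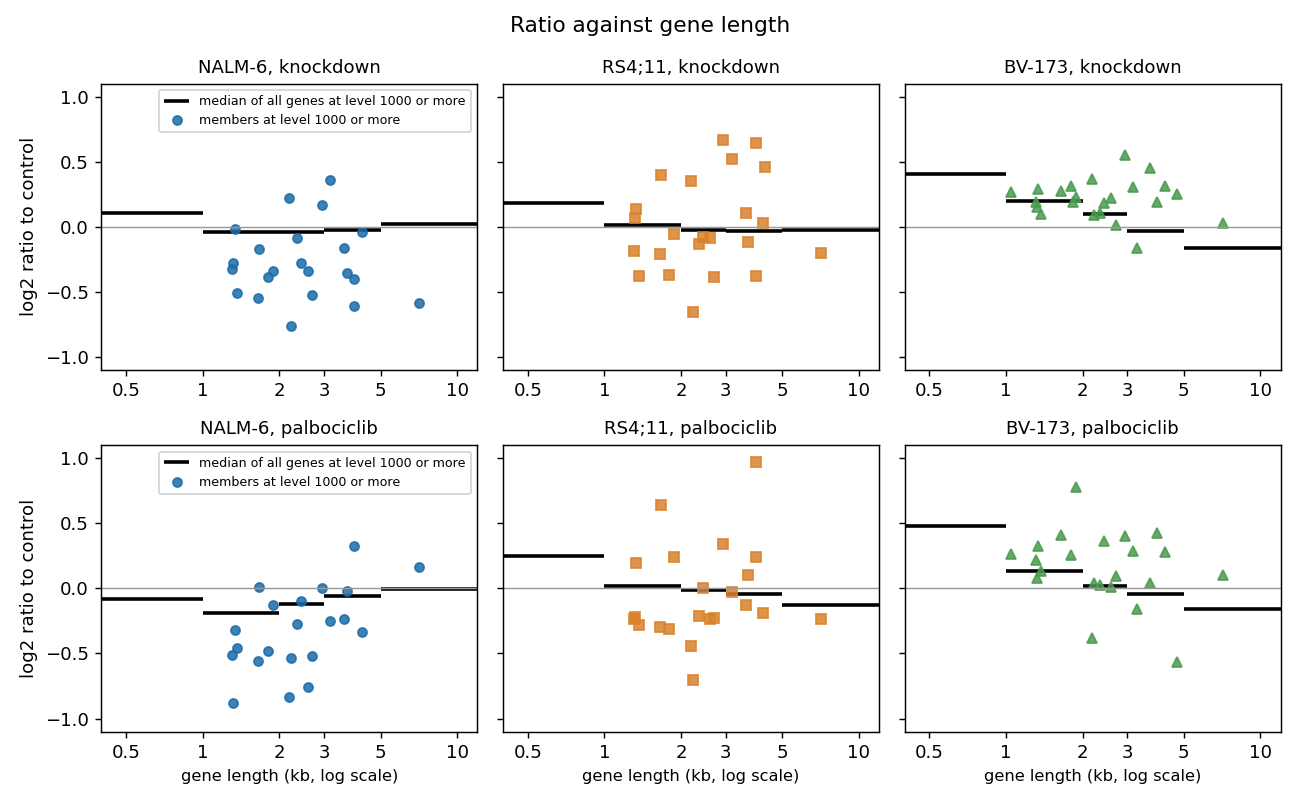
Log2 ratio to control against gene length (kb, log scale) for genes with both levels of at least 1000. Bars are medians of all such genes in 5 length classes and points are the glycolysis and pentose phosphate genes. In BV-173 with knockdown the bars run from 0.406 under 1 kb to -0.165 above 5 kb.

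A change of scaling moves each ratio of a table alike. Levels per kb scaled to their sum, chosen after seeing the data, subtract 0.25 from each BV-173 knockdown log2 ratio and 0.24 from each BV-173 palbociclib ratio, which moves the median of all genes there to -0.257 and -0.201 and leaves 19% and 31.4% of them above control. The same scaling moves the median of all genes to -0.115 with knockdown and -0.142 with palbociclib in RS4;11, and to -0.024 and 0.174 in NALM-6. The share of the 31 genes in the summed level per kb, which does not rest on the scaling of a column, went from 1.88% to 1.49% with knockdown and from 1.64% to 1.28% with palbociclib in NALM-6. In RS4;11 it went from 2.15% to 1.75% and from 2.24% to 1.75%. In BV-173 it was 1.86% and 1.82%, then 1.64% and 1.61%, so the treated groups lay within 0.05 points of their controls in that line.

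As deposited, at most 6 of the genes passed a 1.5-fold change in 1 direction in a line. With knockdown in NALM-6, 0 of 31 were higher by at least 1.5-fold (7.82% of all genes) and 6 lower (8.47%). In RS4;11, 4 were higher (9.73%) and 2 lower (9.72%). In BV-173, 4 of 30 were higher (3.32%) and 0 lower (4.78%). With palbociclib 1 was higher (21.4%) and 5 lower (14.9%) in NALM-6, where the higher one, *SLC16A3*, had levels near 1. The counts were 3 higher (16.7%) and 4 lower (15%) in RS4;11, and 3 higher (13.6%) and 0 lower (11.9%) in BV-173. In 3 of the 6 knockdown counts the share of the pathway was above that of all genes: lower in NALM-6 (19.4%), higher in RS4;11 (12.9%) and higher in BV-173 (13.3%). The RS4;11 count became 2 of 31 (6.45% against 6.95%) with levels per kb scaled to their sum, and 0 (against 3.15%) past 2-fold. The BV-173 count became 0 of 23 (against 2.18%) with both levels at least 1000. The NALM-6 share was above that of all genes under each of these settings. In 5 of the 6 palbociclib counts the share of the pathway was below that of all genes, and in the remaining one, lower in NALM-6, it was 16.1% against 14.9%. With median-centred ratios that last count was 9 of 31 (29% against 17.2%). It was 5 of 29 (17.2% against 17.6%) with both levels at least 10, and 1 of 31 (3.23% against 6.87%) past 2-fold.

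Over the 3 lines, limma called 5 of the 30 genes with palbociclib. *PDK1*, *TKT*, *ENO2* and *RPE* fell and *PGLS* rose, that is 4 lower against 14.8% of all 13307 genes and 1 higher against 12.4%. The first encodes a kinase that inactivates pyruvate dehydrogenase, the next 3 encode transketolase, neuronal-type enolase and ribulose-phosphate epimerase, and *PGLS* encodes 6-phosphogluconolactonase of the oxidative pentose phosphate arm. With knockdown limma called 0 of 30 genes, against 0.015% of all genes higher and 0.0225% lower, and at an unadjusted p under 0.05 there were 5 higher and 1 lower, with 19% of all genes at such a p. The difference between knockdown and palbociclib passed for 0 of 30 genes in limma, against 0% of all genes in each direction, with 3 higher and 1 lower at an unadjusted p under 0.05 (all genes 13.2%). The spread in this test is that between cell lines, so opposite ratios in different lines widen it.

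A fit with cell line as a further term called more genes. For each treatment its p measures the departure within these 3 lines only. For the difference it is a test paired by line, and the fit without this term leaves that pairing out. With knockdown it called 3 higher (*PFKL*, *PFKM* and *SLC16A3*, all genes 6.11%) and 2 lower (*ENO2* and *LDHA*, all genes 8.52%). With palbociclib it called 4 higher (*PFKL*, *PGAM1*, *PGLS* and *SLC16A1*, all genes 20.6%) and 8 lower (*ENO2*, *LDHA*, *PDK1*, *PFKP*, *RPE*, *RPIA*, *TALDO1* and *TKT*, all genes 21.6%). For the difference it called 1 higher (*TKT*, all genes 3.58%) and 0 lower (all genes 1.3%). At an unadjusted p under 0.05 that limma fit had 6 higher and 2 lower for the difference (all genes 24%). Leaving out a line leaves 2 ratios per treatment. In the palbociclib fit that has no line term, limma called 0 of the 30 without NALM-6, against 4.41% of all genes higher and 6.58% lower, with 3 higher and 3 lower at an unadjusted p under 0.05 (all genes 31%). Without RS4;11 it called 0, against 3.4% and 6.08%, with 0 higher and 2 lower at such a p (all genes 29%). Without BV-173 it called 0 higher, against 8.21%, and 6 lower (20% against 12.2%), namely *ENO2*, *LDHA*, *PDK1*, *RPE*, *RPIA* and *TKT*. The means of the 5 genes called over 3 lines had the same sign in each of these fits.

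The promoters shown are those of the 5 genes called with palbociclib, of which 4 fell and *PGLS* rose. Neither share was above that of all genes. Lower calls made up 13.3% of the pathway genes tested, against 14.8% of all genes, and higher calls 3.33% against 12.4%. RefSeq on GRCh38.p14 gave 54 windows of 300 bases, 250 before to 50 after a start, for 28 of the 31 genes and none for *SLC2A3*, *PFKFB2* and *SLC16A1*. Capitals mark, on either strand, the E-box CACGTG, the hypoxia-response core ACGTG, which also lies inside the E-box, the GC box GGGCGG and the E2F words TTTCCCGC, TTTCGCGC, TTTGCCGC and TTTGGCGC. *ENO2* is at chr12:6914330-6914629 on the plus strand, *PDK1* at chr2:172555123-172555422 and chr2:172555840-172556139 on the plus strand, *RPE* at chr2:210002388-210002687 on the plus strand, *TKT* at chr3:53255973-53256272 on the minus strand and *PGLS* at chr19:17511399-17511698 on the plus strand.
ENO2: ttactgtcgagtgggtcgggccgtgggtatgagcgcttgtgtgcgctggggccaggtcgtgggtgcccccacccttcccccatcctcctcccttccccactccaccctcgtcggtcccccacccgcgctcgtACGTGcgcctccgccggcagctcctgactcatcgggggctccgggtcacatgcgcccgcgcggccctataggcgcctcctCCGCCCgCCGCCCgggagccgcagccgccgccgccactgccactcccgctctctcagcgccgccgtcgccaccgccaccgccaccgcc
PDK1 first window: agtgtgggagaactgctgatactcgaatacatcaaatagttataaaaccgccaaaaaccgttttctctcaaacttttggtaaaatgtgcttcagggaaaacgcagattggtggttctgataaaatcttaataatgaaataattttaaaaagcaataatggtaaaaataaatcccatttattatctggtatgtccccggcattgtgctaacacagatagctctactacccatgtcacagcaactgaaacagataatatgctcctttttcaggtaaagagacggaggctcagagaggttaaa
PDK1 second window: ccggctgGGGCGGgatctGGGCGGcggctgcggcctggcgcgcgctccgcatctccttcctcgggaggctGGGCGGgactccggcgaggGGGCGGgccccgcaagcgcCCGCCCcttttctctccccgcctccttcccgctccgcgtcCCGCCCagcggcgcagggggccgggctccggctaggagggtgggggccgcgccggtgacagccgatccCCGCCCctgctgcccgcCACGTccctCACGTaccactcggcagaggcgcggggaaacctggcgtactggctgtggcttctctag
RPE: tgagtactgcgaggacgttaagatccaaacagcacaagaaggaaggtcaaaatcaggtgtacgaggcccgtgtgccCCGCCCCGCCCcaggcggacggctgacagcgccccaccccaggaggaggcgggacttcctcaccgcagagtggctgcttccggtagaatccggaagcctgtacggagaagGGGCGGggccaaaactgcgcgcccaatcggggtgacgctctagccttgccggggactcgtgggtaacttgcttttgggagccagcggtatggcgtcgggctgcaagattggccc
TKT: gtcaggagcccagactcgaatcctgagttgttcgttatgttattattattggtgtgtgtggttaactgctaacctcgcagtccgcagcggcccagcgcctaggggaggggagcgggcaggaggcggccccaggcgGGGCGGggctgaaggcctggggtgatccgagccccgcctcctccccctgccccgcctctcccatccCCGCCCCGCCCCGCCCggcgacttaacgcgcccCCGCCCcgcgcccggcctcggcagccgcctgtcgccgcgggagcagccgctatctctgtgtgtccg
PGLS: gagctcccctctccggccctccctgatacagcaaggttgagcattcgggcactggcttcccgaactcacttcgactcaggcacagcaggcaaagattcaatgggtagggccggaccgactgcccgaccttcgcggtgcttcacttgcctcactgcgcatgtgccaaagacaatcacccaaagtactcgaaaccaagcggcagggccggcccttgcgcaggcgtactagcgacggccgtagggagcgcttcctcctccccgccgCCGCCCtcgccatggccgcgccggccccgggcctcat

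The core ACGTG occurred in the *ENO2* window and in the second *PDK1* window, and not in the windows of *RPE*, *TKT* and *PGLS*. Over all windows of the pathway it was in 19 of 54 (35.2%), against 21.4% of 35116 promoter windows. The E-box was in 6 of 54 (11.1% against 7.26%), those of *HK2*, *PFKFB3*, *ALDOA*, *ALDOC*, *GAPDH* and *LDHA*. The GC box was in 38 of 54 (70.4% against 45%), which took in 27 of the 28 genes with a window, all but *GPI*. The E2F words were in 3 of 54 (5.56% against 3.31%), in *PFKM* and *GAPDH*. A match describes the letters of a window and not the binding of a factor.

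Glucose enters through facilitative transporters, of which *SLC2A1* encodes GLUT1 and *SLC2A3* the high-affinity GLUT3. *SLC2A1* had levels of 1139 to 2012 over the 12 groups, and its ranges in the 3 lines overlapped, although levels of different tables were scaled separately. *SLC2A3* was 1761 in scrambled and 2745 in shCCND3 cells of RS4;11, and 1318 with DMSO and 2583 with palbociclib. That put *SLC2A1* at 49.0% and then 36.3% of the summed level per kb of both transporters with knockdown, and at 48.0% and then 33.6% with palbociclib. In NALM-6 and BV-173 it stayed the larger share, between 60.1% and 81.6%. *SLC2A3* in BV-173 knockdown cells was 179% of control, but neither transporter gene passed limma with either treatment, at adjusted p from 0.352 to 0.988.

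Hexokinases trap glucose as glucose 6-phosphate. The lines differed in *HK1*, while *HK2* had levels of 1034 or more in each. *HK1* had levels of 1839 to 2537 in NALM-6 and 2286 to 2973 in RS4;11, but of 0.308 to 0.450 in BV-173. *HK2* had levels of 2643 to 2922 in BV-173, where *HK1* was 0.0215% to 0.0322% of the level per kb of both genes. In NALM-6 *HK1* made up 54.8% to 74.9% and in RS4;11 77.0% to 83.8%. Knockdown left *HK2* at 66.5% of control in NALM-6, 87.0% in RS4;11 but 102% in BV-173, and palbociclib at 112%, 85.0% and 108%. The *HK1* ratio in BV-173 rests on levels below 1, where ratios were compressed: the SD of the log2 ratio over genes below level 1 was 0.111 in that knockdown table, against 0.462 for levels of 10 to 100. *GPI*, which encodes the isomerase of the next step, was 97.3% to 124% of control with knockdown and 79.4% to 122% with palbociclib.

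**Figure D3:**
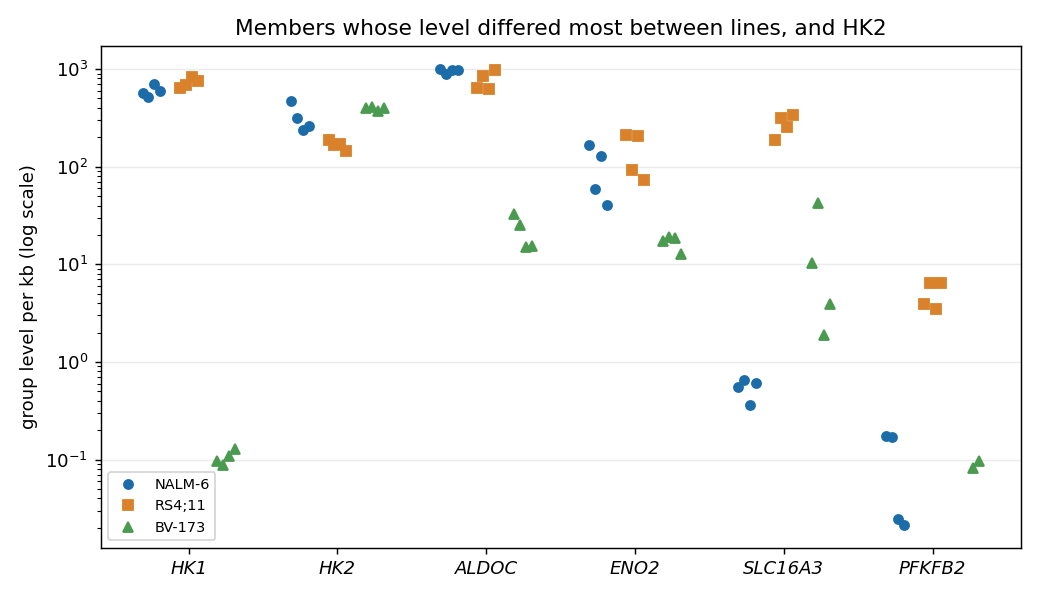
Group levels per kb (log scale) of the genes whose level differed most between lines, and of *HK2*, in the 4 groups of each line. *HK1* lies between 0.0882 and 0.129 in BV-173 and at 511 or more in the other lines. *SLC16A3* lies between 188 and 339 in RS4;11 and at 43 or less in the other lines. The deposited length of *PFKFB2* differed between tables, so its points are not compared. Tables were scaled separately.

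Other genes set the lines apart as well. *ALDOC*, a second aldolase, had levels of 25.0 to 54.7 in BV-173, against 1491 to 1676 in NALM-6 and 1049 to 1637 in RS4;11. *PKM* was 38689 to 57836 in RS4;11, above its range in NALM-6 (13020 to 21689) and in BV-173 (20445 to 25852). *SLC16A3*, which encodes the lactate exporter MCT4, was 391 to 702 in RS4;11, 3.80 to 87.2 in BV-173 and 0.744 to 1.33 in NALM-6. These are ranges over the 4 groups of a line in tables scaled separately, and each group is 1 value without a spread.

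Phosphofructokinase commits sugar to glycolysis, and its 3 genes shifted in make-up. *PFKP*, the platelet-type isoform, made up a lower share of the summed level per kb in the treated group of each of the 6 comparisons. With knockdown it went from 34.0% to 25.7% in NALM-6, from 33.8% to 23.6% in RS4;11 and from 27.9% to 24.3% in BV-173. With palbociclib it went from 29.6% to 21.0%, from 32.8% to 26.0% and from 24.4% to 20.1%. *PFKL*, the liver-type isoform, had a higher share in each of the 6, for example 50.4% and then 59.6% in RS4;11 with knockdown. The *PFKM* share went both ways, with knockdown from 22.9% to 28.1% in NALM-6 and from 19.7% to 18.2% in BV-173. It was higher in NALM-6 with each treatment and in RS4;11 with knockdown, and lower in the other comparisons. These shares compare genes within 1 column and so do not depend on its scaling.

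*PFKL* was also 1 of 3 genes above control in each of the 6 comparisons, with *SLC16A3* and *PGLS*, against 12.5% of all genes, although its NALM-6 palbociclib ratio was 100% of control to 3 digits. Its knockdown levels were 4362 and 4894 in NALM-6, 5396 and 8582 in RS4;11 and 7719 and 11306 in BV-173. In limma its mean log2 ratio was 0.46 (SE 0.132, adjusted p 0.116) with knockdown and 0.25 (adjusted p 0.189) with palbociclib, and with cell line as a further term adjusted p was 0.0108 and 0.0347. *PFKM*, the muscle-type isoform, was 128%, 144% and 124% of control with knockdown and 83.9%, 97.8% and 122% with palbociclib. The knockdown mean of *PFKM* was 0.40 (SE 0.119, adjusted p 0.130 in limma). *PFKP* with palbociclib was 59.2% of control in NALM-6, 85.1% in RS4;11 but 101% in BV-173 (limma mean -0.33, adjusted p 0.167).

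**Figure D4:**
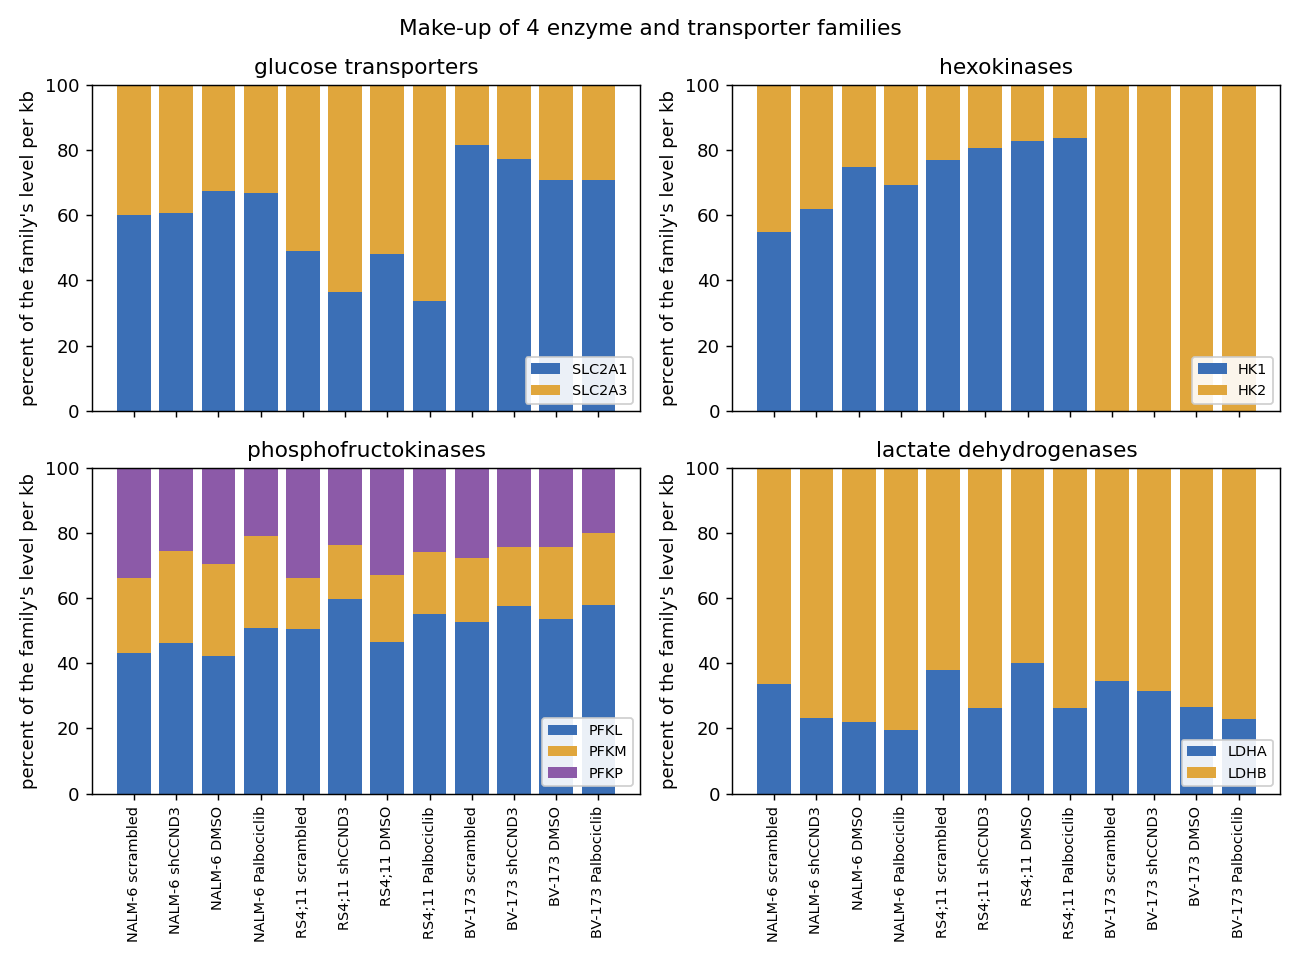
Share (percent of the summed level per kb) of each gene in its paralog group, for the 12 groups. The *PFKP* share is lower in the treated than in the control group in 6 of 6 comparisons, for example 33.8% and 23.6% in RS4;11 with knockdown, and *HK1* is near 0 in BV-173.

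The PFKFB enzymes make and remove the sugar bisphosphate that activates phosphofructokinase. *PFKFB4* had the widest knockdown ratios among the 31 genes: its level went from 335 to 99.3 in NALM-6, from 344.5 to 320 in RS4;11 and from 167 to 377 in BV-173. That is 29.6%, 92.8% and 226% of control, and the SD of the log2 ratio over the 3 lines was 1.47. In NALM-6 with knockdown, 2 of 17 hypoxia-response genes outside glycolysis were above control, against 51.2% of all genes. The *PFKFB4* level in NALM-6 DMSO cells was 92.5, in a table scaled separately. Its palbociclib ratios were 83.0%, 133% and 216%. *PFKFB3* was 64.1%, 137% and 151% of control with knockdown and 113%, 129% and 132% with palbociclib. It was more abundant per kb than *PFKFB4* in each group. *PFKFB2*, the remaining one, had levels of 24.0 to 43.9 in RS4;11 and below 1 in the other lines, so only its RS4;11 ratios, 164% with knockdown and 183% with palbociclib, rest on more than a trace.

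Aldolase and triose-phosphate isomerase complete upper glycolysis. *ALDOA* was 68.4% of control in NALM-6, 86.4% in RS4;11 but 121% in BV-173 with knockdown, and 67.9%, 81.2% and 133% with palbociclib. *TPI1*, the isomerase gene, was 70.4%, 76.9% and 107%, then 73.0%, 82.4% and 110%. Neither passed limma with either treatment, at adjusted p from 0.371 to 0.760. *ALDOC* was 132% with knockdown and 156% with palbociclib in RS4;11, and from 76.3% to 102% in the other lines.

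The enzymes of lower glycolysis harvest ATP and NADH. *GAPDH* was 79.9%, 87.8% and 114% of control with knockdown and 70.1%, 85.1% and 116% with palbociclib, in the order NALM-6, RS4;11 and BV-173. *ENO1*, the main enolase gene, was 76.4%, 77.3% and 124%, then 71.5%, 80.7% and 119%. *PKM*, which encodes the pyruvate kinase that makes the last ATP, was 69.5%, 76.3% and 101%, then 69.9%, 85.3% and 107%. These 3 abundant genes were thus below control in NALM-6 and RS4;11 with each treatment, and none of the 3 passed limma. *PGK1*, for phosphoglycerate kinase, was 82.4% to 113% of control with knockdown and 93.3% to 129% with palbociclib. *PGAM1*, for the mutase of the following step, was 171% of DMSO in BV-173 with palbociclib, where its levels were 4499 and 7712.

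*ENO2* had the lowest palbociclib mean of the 30 genes in limma. Its level with DMSO and palbociclib was 308 and 98.4 in NALM-6, 498 and 177 in RS4;11 and 44.7 and 31.2 in BV-173. It fell by a mean log2 of -1.22 (SE 0.341, adjusted p 0.0320 in limma), lower in 3 of 3 lines. With knockdown its level went from 402 to 142 in NALM-6, from 510 to 224 in RS4;11 and from 42.0 to 46.0 in BV-173, a mean of -0.85 (SE 0.341, adjusted p 0.227 in limma). *ENO2* was at most 1.12% of the level per kb of both enolase genes, and that share was lower in the treated group in 6 of 6 comparisons. Its palbociclib call was lost without NALM-6 (limma mean -1.005, adjusted p 0.157) and without RS4;11 (-1.084, adjusted p 0.177), over a range of 0.00119 to 0.177 in the alternatives.

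**Figure D5:**
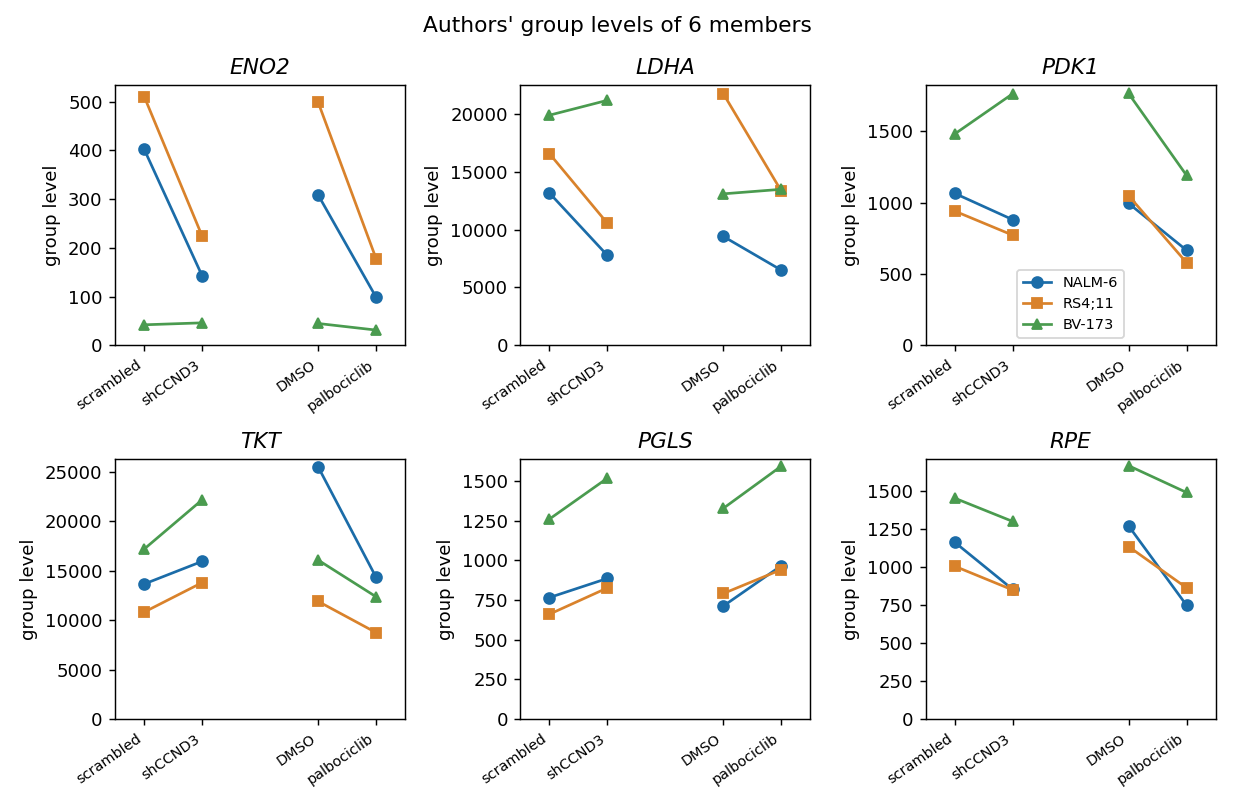
Authors' group levels of *ENO2*, *LDHA*, *PDK1*, *TKT*, *PGLS* and *RPE* in control and treated groups, 1 line per cell line and comparison, with vertical axes from 0. *TKT* is higher in shCCND3 than in scrambled cells and lower with palbociclib than with DMSO in 3 of 3 lines. Tables were scaled separately.

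Lactate dehydrogenase interconverts pyruvate and lactate, and *LDHA* encodes the subunit with the preference for pyruvate. *LDHA* levels with knockdown went from 13170 to 7770 in NALM-6, from 16577 to 10550 in RS4;11 and from 19897 to 21185 in BV-173. With palbociclib they went from 9411 to 6495, from 21751 to 13337 and from 13096 to 13489. The limma means were -0.44 (SE 0.200, adjusted p 0.280) with knockdown and -0.40 (adjusted p 0.170) with palbociclib, and with cell line as a further term adjusted p was 0.0211 and 0.0109. *LDHB*, for the heart-type subunit, was 98.7% to 122% of control with knockdown and 80.3% to 125% with palbociclib. The *LDHA* share of both genes per kb was lower in the treated group in 6 of 6 comparisons, from 33.5% to 23.2% and from 22.1% to 19.6% in NALM-6. In RS4;11 it went from 37.9% to 26.1% and from 40.1% to 26.4%, and in BV-173 from 34.5% to 31.5% and from 26.6% to 23.0%. *LDHA* (2225 bases) is longer than *LDHB* (1336 bases), as *ENO2* (2423 bases) is than *ENO1* (1800 bases). Ratios fell with gene length in BV-173 and, to a lesser degree, in RS4;11, and the part of length in these shares was not tested.

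*PDK1* encodes a kinase that shuts off pyruvate dehydrogenase and so holds pyruvate back from mitochondria. Its level with DMSO and palbociclib was 995 and 666 in NALM-6, 1049 and 579 in RS4;11 and 1765 and 1191 in BV-173. It fell by a mean log2 of -0.67 (SE 0.136, adjusted p 0.00999 in limma), lower in 3 of 3 lines, the lowest adjusted p among the 30 genes with palbociclib. Without NALM-6 the limma mean was -0.71 (adjusted p 0.0598) and without RS4;11 -0.57 (adjusted p 0.0945), with adjusted p over a range of 0.00191 to 0.0945 in the alternatives. With knockdown its level was 82.7%, 82.1% and 119% of control (limma mean -0.10, adjusted p 0.760), and the difference between treatments was 0.57 (adjusted p 0.289).

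Lactate leaves the cell through monocarboxylate transporters. *SLC16A1*, which encodes MCT1, was 65.6%, 76.8% and 114% of control with knockdown and 125%, 118% and 134% with palbociclib. The difference between treatments had a limma mean of -0.59 (SE 0.209, adjusted p 0.298), and 0.0677 with cell line as a further term. *SLC16A3* was above control in 6 of 6 comparisons, from 391 to 653 and from 523 to 702 in RS4;11 and from 20.9 to 87.2 and from 3.80 to 7.915 in BV-173. Its share of both transporters per kb in RS4;11 was 18.9% and then 33.7% with knockdown. The limma mean with knockdown was 1.02 (SE 0.345, adjusted p 0.161). It rests most on BV-173, without which it was 0.50 (adjusted p 0.414), and it was 1.40 without NALM-6, where levels were near 1.

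In the oxidative pentose phosphate arm, *PGLS* was above control in each of the 6 comparisons. Its level with DMSO and palbociclib was 712 and 966 in NALM-6, 791 and 942 in RS4;11 and 1328 and 1594 in BV-173. It rose by a mean log2 of 0.32 (SE 0.099, adjusted p 0.0466 in limma), higher in 3 of 3 lines. That call was lost with median-centred ratios (limma adjusted p 0.0545), without the trend on level (0.0766), with the treatments fitted separately (0.141), and without each line in turn (0.0933 to 0.235, with means of 0.26 to 0.35). With the trend on gene length taken out, an alternative chosen after seeing the data, the mean was 0.23 (limma adjusted p 0.223). With knockdown *PGLS* was 116%, 125% and 121% of control (limma mean 0.27, adjusted p 0.196). *PGD*, for the dehydrogenase that follows, was 94.0%, 91.0% and 108% of control with knockdown and 82.6%, 86.3% and 102% with palbociclib.

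In the non-oxidative arm, *TKT* was the 1 gene of 30 on opposite sides of control under the 2 treatments in each of the 3 lines as deposited, against 4.02% of all genes. Within a line, 25 of 30 genes in BV-173, 22 in NALM-6 and 20 in RS4;11 were on the same side with both, against 65.5%, 70% and 75.8% of all genes. *TKT* encodes transketolase, which moves carbon units between sugar phosphates. Its level went from 13664 to 15958 in NALM-6, from 10824 to 13809 in RS4;11 and from 17203 to 22187 in BV-173 with knockdown. With palbociclib it went from 25505 to 14323, from 11903 to 8741 and from 16081 to 12366. In NALM-6 the 2 controls, 13664 and 25505, thus differed more than the 2 treated groups, 15958 and 14323, in tables scaled separately. The part of the controls in these opposite sides was not tested. It fell with palbociclib by a mean log2 of -0.55 (SE 0.125, adjusted p 0.0150 in limma), lower in 3 of 3 lines, and the knockdown mean was 0.31 (SE 0.125, adjusted p 0.224). The difference of 0.87 (SE 0.177) had a limma adjusted p of 0.219 when not paired by line. With cell line as a further term, which pairs it by line, that p was 0.0177, over a range of 0.0177 to 0.767 in the alternatives. The palbociclib call was lost without NALM-6 (limma mean -0.41, adjusted p 0.0695), without RS4;11 (-0.61, adjusted p 0.105) and with the treatments fitted separately (-0.55, adjusted p 0.0734).

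*RPE* encodes the epimerase of ribulose 5-phosphate. As deposited it was the 1 gene of 30 below control in each of the 6 comparisons, against 15.3% of all genes. Levels per kb scaled to their sum subtract 0.25 and 0.24 from the BV-173 log2 ratios. That puts further genes, such as *LDHA* and *PKM*, below control in each of the 6. The *RPE* level with DMSO and palbociclib was 1269 and 747 in NALM-6, 1133 and 862 in RS4;11 and 1664 and 1488 in BV-173. It fell by a mean log2 of -0.44 (SE 0.133, adjusted p 0.0417 in limma), and with knockdown the mean was -0.28 (adjusted p 0.294). That call was lost without NALM-6 (limma mean -0.28, adjusted p 0.225), without RS4;11 (-0.46, adjusted p 0.175), without the trend on level (0.0709) and with the treatments fitted separately (0.108). *RPIA*, for the isomerase that makes ribose 5-phosphate, was 69.2%, 63.4% and 100% of control with palbociclib (limma mean -0.39, adjusted p 0.0975). *TALDO1*, for transaldolase, was 54.3% of control in NALM-6, 85.7% in RS4;11 but 106% in BV-173 (limma mean -0.34, adjusted p 0.184). With knockdown these last 2 genes ranged from 81.5% to 114% of control.

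Other genes of the same pathways were taken from a list of 27, of which 23 were listed in all 6 tables. Limma called 7 of them higher, more than the 12.4% of all genes, and 3 lower, near the 14.8% of all genes, with palbociclib. It called 0 with knockdown, where 2 had an unadjusted p under 0.05. *TIGAR*, which encodes a fructose bisphosphatase that turns sugar toward the pentose phosphate pathway, rose by a mean log2 of 0.82 (adjusted p 0.00474). The transporter gene *SLC2A6* rose by 1.74 (limma adjusted p 0.00597) and the ADP-dependent glucokinase gene *ADPGK* by 0.40 (adjusted p 0.0244). The other higher genes were *PGAM2*, *ENO3*, *LDHD* and *RBKS*. *PRPS1* and *PRPS2*, which encode the synthetases that make phosphoribosyl pyrophosphate from ribose 5-phosphate, fell by -0.74 and -1.64 (limma adjusted p 0.0153 and 0.00372), and *DERA*, for deoxyribose-phosphate aldolase, by -0.83 (adjusted p 0.00420).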

How the data were processed

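RNA from 34 samples in 12 groups was sequenced. By the submitters' notes and methods, reads were aligned to hg38 with Bowtie2, counted with RSEM and compared with DESeq2, versions not given. The deposited expression columns are the authors' signal, 1 normalised value per group, with unknown depth per sample. The authors' own columns of log2 fold change, p, adjusted p and direction were not used. Members and lists were chosen with earlier results of these data known. Named genes were *CCND3*, then the 31 members in pathway order, and otherwise only genes of the stated lists. Log2 ratios of treated to control level were taken in each table without a pseudocount and fitted with limma 3.58.1 (R 4.3.3) over the 13307 genes in all 6 tables, with 3 knockdown and 3 palbociclib ratios in 1 fit, a trend on level, two-sided tests and Benjamini-Hochberg adjustment over all genes, called at an adjusted p under 0.05. The code was tested on simulated data. Levels per kb used the deposited gene lengths, which differed between tables by up to 1.05-fold for members other than *PFKFB2*. Tables and shares were computed with Python 3.11.15, numpy 2.4.6 and pandas 2.3.3. Alternatives covered pseudocount, level filters, centring, scaling, gene length, cell line and single lines.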

Additional observations from a re-analysis of the deposited data

How the results depend on the processing

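No paired analysis was possible because each deposited column holds 1 value per group, so replicate numbers could not be used. Pairing the treatments by cell line was the alternative with cell line as a further term. Each line gives 1 ratio, the tests use 3 lines as replicates, low levels gave compressed ratios, and unknown depth sets no limit of detection. Filters at level 1000, scaling to summed levels, the length trend, and the alternatives for counts above control and for the pattern over the lines were chosen after seeing the data. Of 304 values of counts, medians and shares under alternatives, 228 stayed within their limit and 76 moved, and of 930 values of single genes 846 kept their direction and side of the threshold, 20 were weaker, 20 stronger and 44 moved. The cause was not tested except where fewer genes or lines were used or the fold itself was set.

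Genes called with knockdown, 5, became 34 with a mean level of at least 10 (fewer genes), 1 without the trend on level, 1947 with cell line as a further term, 841 with separate fits, 1 with the length trend taken out and 0 to 230 when leaving out 1 line. Genes called with palbociclib, 3618, became 5609 with the line term, 1965 with separate fits and 1261 to 2720 when leaving out 1 line. For the difference, 0 became 650 with the line term, 650 with separate fits and 1 with the length trend taken out. The line term called 3 members higher (all genes 6.11%) and 2 lower (8.52%) with knockdown, 4 higher (20.6%) and 8 lower (21.6%) with palbociclib, and 1 higher for the difference (3.58%), as did separate fits (1). With palbociclib, members called higher were 0 with centring (all genes 11.7%), without the trend on level (11.4%), with separate fits (5.58%) and with the length trend taken out (14.3%), and 0 to 0 when leaving out 1 line (3.4% to 8.21%). Members called lower were 2 with separate fits (all genes 9.19%) and 0 to 6 when leaving out 1 line (6.08% to 12.2%).

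In the following counts of the 31 members (30 in BV-173 with knockdown), the share of all genes under the same setting stands in parentheses. Past 2-fold with knockdown were 2 higher in BV-173 (0.447%), 2 lower in NALM-6 (3.08%), and in RS4;11 0 higher (3.15%) and 1 lower (3.91%). With palbociclib NALM-6 had 0 higher (11.4%) and 1 lower (6.87%), RS4;11 had 0 (7.13%) and 1 (7.07%), and BV-173 had 2 (4.76%) and 0 (4.98%), so the share of members higher there was above that of all genes, unlike past 1.5-fold. Past a lower fold threshold, a ratio of 5 to 4, knockdown in NALM-6 gave 1 higher (18.8%) and 16 lower (18%), in RS4;11 9 (20.6%) and 6 (20.2%), and in BV-173 7 (13.7%) and 1 (15.4%). Palbociclib gave 3 higher (32.8%) and 14 lower (25.4%) in NALM-6, 7 higher (28.5%) in RS4;11, and 9 higher (25.9%) and 3 lower (22.7%) in BV-173.

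With both levels at least 1000, 21 to 23 members were left. Past 1.5-fold with knockdown were 3 of 22 lower in NALM-6 (7.16%), 0 of 23 higher in BV-173 (2.18%), and of 23 in RS4;11 2 higher (5.59%) and 1 lower (6.99%). With palbociclib 0 of 21 were higher (7.83%) and 3 lower (12.7%) in NALM-6, 1 of 22 lower in RS4;11 (10.3%) and 1 of 22 higher in BV-173 (7.65%). Above control were then 3 of 22 in NALM-6 with knockdown (48.3%), and 4 of 21 in NALM-6 (42.5%) and 8 of 22 in RS4;11 (46.6%) with palbociclib. Centring gave 9 of 31 lower past 1.5-fold (17.2%) and 5 above control (50%) in NALM-6 and 1 of 31 lower in BV-173 (13.2%) with palbociclib. The 1 higher in NALM-6 with palbociclib was 0 with a pseudocount of 1 (18.6%) and 0 of 29 with levels at least 10 (17.1%). Scaling to the summed level gave 1 of 31 lower in BV-173 with palbociclib (14.1%). Scaling to the sum per kb gave 2 of 31 higher in RS4;11 (6.95%) and 1 of 30 lower in BV-173 (14.5%) with knockdown, 3 of 31 lower in BV-173 with palbociclib (21.7%), and 14 above control in BV-173 with each treatment (19% and 31.4%). The members' median there changed sign, to -0.027 with each treatment, with all genes at -0.257 and -0.201, a shift that this scaling gives each gene. The pattern below control in NALM-6 and RS4;11 and above it in BV-173 was then held by 6 of 30 with knockdown (4.01%) and 5 with palbociclib (3.64%), and by 8 with palbociclib (6.46%) with the length trend taken out. The median *LDHA* share was 37.6% from levels as deposited.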

Other observations

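Genes of pyruvate entry and the tricarboxylic acid cycle had median log2 ratios between -0.197 and 0.147 in the 6 comparisons. Of 22 tested, limma called 3 higher and 2 lower with palbociclib, near or below the 12.4% and 14.8% of all genes. The higher ones were *MPC1*, for a subunit of the mitochondrial pyruvate carrier (mean log2 0.68, adjusted p 0.0397), *PDK2* (0.475, adjusted p 0.0192) and *OGDH* (0.48, adjusted p 0.0268). The lower ones were *DLST* (-0.48, adjusted p 0.0235) and *SUCLA2* (-0.53, adjusted p 0.0139). With knockdown limma called 0 of 22, with 4 at an unadjusted p under 0.05 (all genes 19%).

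Hypoxia-response genes outside glycolysis were above control in 2 of 17 cases in NALM-6 with knockdown, against 51.2% of all genes, with a median log2 ratio of -0.49 and 8 lower by at least 1.5-fold, against 8.47% of all genes. Among them the stress gene *DDIT4* went from 11501 to 4712 and the angiogenic factor gene *VEGFA* from 2545 to 1227. In NALM-6 DMSO cells these genes had levels of 2968 and 879, in a table scaled separately. With knockdown in RS4;11 and BV-173, 10 of 17 were above control (all genes 50.9% and 48.9%) with medians of 0.02 and 0.06. With palbociclib 7 of 18 were above control in NALM-6 (all genes 53.5%), 7 of 16 in RS4;11 (51.7%) and 7 of 17 in BV-173 (52.9%). Over the lines limma called 0 of 16 with knockdown, with 2 at an unadjusted p under 0.05, and with palbociclib it called 2 of 16 lower, no more than the 14.8% of all genes, *HIF1A* (-0.55, adjusted p 0.0207) and *ERO1A* (-0.47, adjusted p 0.0206).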
